A study of Mus musculus with 12 samples.

Results

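The glycosyltransferases of surface glycans are Golgi enzymes that build the sugar chains carried by membrane proteins and lipids, and 81 of the 23352 gene symbols in the deposited files belonged to 12 of their families. Members were chosen by symbol, with earlier results of these data known. They comprised 16 Galnt, 9 B3gnt, 9 Fut, 8 Mgat, 7 B4galt, 6 St3gal, 6 St6galnac, 6 St8sia, 5 B3galt, 5 Gcnt and 2 St6gal genes, with C1galt1 and its chaperone C1galt1c1. Their mRNA was measured in regulatory T cells (Tregs), the Foxp3-expressing T cells that restrain immune responses, sorted from female C57BL/6 mice (spleen and lymph nodes). All mice were Foxp3YFP-Cre/Foxp3WT, so that 1 of the 2 Foxp3 alleles carried the YFP-Cre and the other was wild type. HET mice were Ezh2fl/+ and KO mice were Ezh2fl/fl, and Cre in these mice follows the Foxp3 promoter. Ezh2 is the enzyme of the Polycomb complex PRC2 that places a repressive methyl mark on histone H3. Cells of each genotype were sorted as CD62Lhi, the state of resting Tregs, or CD62Llo, the state of activated Tregs. The groups were HET CD62Lhi (n = 2), HET CD62Llo (n = 3), KO CD62Lhi (n = 3) and KO CD62Llo (n = 3). The sources used here do not give the age of the mice, any use of YFP in the sort, or whether each library came from its own mice. The p-values therefore measure the spread between these libraries, which may be technical.

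Surface glycans are assembled in steps. GALNT enzymes put the first sugar of a mucin-type O-glycan on serine or threonine, C1GALT1 extends it to core 1, and GCNT1 adds the branch that makes core 2. On N-glycans, MGAT enzymes open branches, B4GALT and B3GNT enzymes lengthen them as poly-N-acetyllactosamine, and FUT8 adds the core fucose. Sialyltransferases and fucosyltransferases then cap the chains. A core 2 O-glycan capped with sialic acid and with fucose added by FUT7 carries sialyl Lewis x, the structure by which T cells bind P- and E-selectin on inflamed vessels.

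Values were FPKM, fragments scaled by transcript length and by all mapped fragments, so levels are given per length. The FPKM and their interval bounds implied 6.27 to 25.1 fragments per library in units of 1e6, an estimate, and 1 further HET CD62Lhi library was left out because its label sets it aside for low read counts (589 of 23846 entries above 0). Foxp3 stood between 75.9 and 96.8 FPKM in the 11 libraries. Ezh2 mRNA was 12.7 and 12.5 FPKM in HET CD62Lhi, 18.2, 17.8 and 20.5 in HET CD62Llo, 9.15, 11.5 and 11 in CD62Lhi of KO mice and 12.5, 16.8 and 14.4 in CD62Llo of KO mice, lower in KO within each fraction. This value covers the whole gene, so it checks the genotype only in part. As use of YFP in the sort is not given, the share of cells in the KO libraries in which Cre had acted is not known.

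Summed levels of markers of other cells differed between the fractions. Over 8 B cell genes the sum was 81 to 139 FPKM in CD62Lhi and 24.3 to 67.7 in CD62Llo libraries, and over 5 CD8 T and NK cell genes it was 29.98 to 44.6 and 13.2 to 19.7. Over 8 myeloid genes it was 12.5 to 26.2 FPKM in CD62Lhi and 32.4 to 257 in CD62Llo. Over 4 plasma cell genes it was 2.87 to 8.3 and 3.9 to 15.2, and over 4 red cell genes 8.34 to 296 and 3.94 to 183. Stroma and endothelium markers summed to at most 0.621 FPKM over 7 genes in every library, with Pdgfra at 0 in all. The 7 Treg and T cell genes summed to 1208 to 1299 FPKM in CD62Lhi and 1457 to 1876 in CD62Llo. Not every gene moved with its list sum. Cd8b1 was the largest part of the CD8 T and NK cell sum in every library. Klrb1c of that list went the other way, with 0.266 to 0.395 FPKM in CD62Lhi and 1.03 to 3.97 in CD62Llo, and Eomes and Ncr1 overlapped between fractions. Blk of the B cell list and Foxp3 and Il2ra of the Treg and T cell list overlapped as well. Lyz2 was the largest part of the myeloid sum in every library, and the only gene of that list whose ranges did not overlap between fractions. Csf1r, for example, was 1.54 to 5.67 FPKM in CD62Lhi and 2.08 to 15.9 in CD62Llo, and Fcer1g was 1.34 to 4.58 and 3.16 to 16.4. Single libraries stood apart within groups. The B cell sum was 67.7 FPKM in KO CD62Llo replicate 3, against 27.6 and 28.1 in replicates 1 and 2, and 139 in KO CD62Lhi replicate 3, against 81 and 82 in the others of that group. The myeloid sum was 146 and 257 FPKM in KO CD62Llo replicates 1 and 2 and 32.4 in replicate 3, against 49.1 to 102 in HET CD62Llo. The part of these other cells in the differences below, between fractions and between genotypes, was not tested, and calls that change without 1 of these libraries are given with and without it.

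Tregs held a broad but uneven set of these enzymes. A member was tested if its FPKM reached 1 in at least 2 of the 11 libraries, and 48 of 81 members did. Of the 33 others, 6 (Fut4-ps1, Fut9, Galnt18, Mgat4c, St6gal2 and St8sia5) were listed at 0 in every library, and the highest value of any in 1 library was 0.952 FPKM (B3galt5). All 6 St3gal genes and both C1galt1 genes were tested, but only 1 of 5 Gcnt genes, 2 of 5 B3galt, 3 of 6 St6galnac, 3 of 6 St8sia, 4 of 9 Fut and 1 of 2 St6gal genes. The remaining counts were 10 of 16 Galnt, 6 of 9 B3gnt, 5 of 7 B4galt and 5 of 8 Mgat genes. Of the tested members, 4 reached 1 FPKM in libraries of 1 fraction only: Gcnt1, Galnt14 and Fut10 in CD62Llo and B3gnt8 in CD62Lhi. B4galt4 and Fut7 reached it in 6 and 5 CD62Llo libraries but in only 1 CD62Lhi library each, short of the 2 needed. All of these passed the minimum through the fraction in which they were higher, so the counts between fractions below lean on it and are descriptions. As means of the 4 group means, 12 members stood at 20 FPKM or more, 10 between 10 and 20, 23 between 1 and 10 and 36 below 1.

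St6gal1, which adds alpha2,6-linked sialic acid to N-glycan ends, had the highest level, 62.7 FPKM as the mean of group means. B3gnt2, the main poly-N-acetyllactosamine synthase, stood at 55.3 and Galnt6 at 49.1. The next were Mgat1 (33.3 FPKM), which opens the pathway to complex N-glycans, Galnt10 (32.8), Galnt1 (31.6) and B4galt1 (29.5), a main galactosyltransferase. St3gal1 (28.7 FPKM), which caps core 1, Galnt2 (25.1) and St8sia6 (23.9), which adds a second sialic acid in alpha2,8 linkage, completed the 10 highest. The ranges over libraries of the first 3 overlapped (52.9 to 79.6 FPKM for St6gal1, 41.7 to 70.4 for B3gnt2 and 41.0 to 59.1 for Galnt6), and Mgat1, Galnt10 and Galnt1 differed by less than the range of Mgat1 (29.6 to 40.9 FPKM). The FPKM summed over all 81 members was 628 to 712 in the 11 libraries, and the CD62Lhi sums (628 to 660.3 FPKM) lay partly within the CD62Llo sums (639 to 712 FPKM). The symbol B3gnt1 of the files is B4gat1 in RefSeq, a glucuronyltransferase of dystroglycan, and is counted because its symbol matches.

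**Figure D1:**
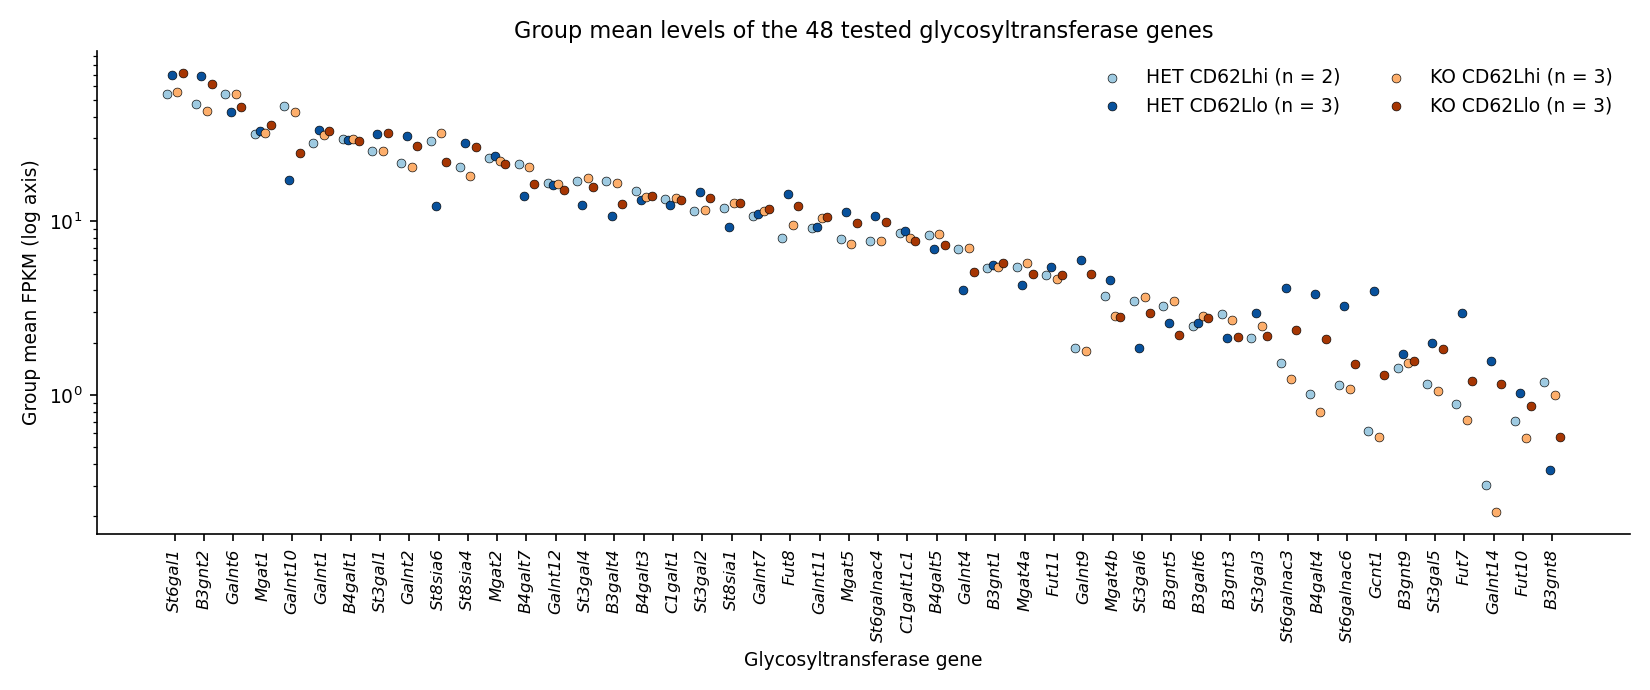
Group mean FPKM (log axis) of the 48 tested members, ordered by the mean of the 4 group means, with 1 point per group. St6gal1 leads at 62.7 FPKM, and the points of Galnt10, St8sia6, Gcnt1, Galnt14 and B4galt4 spread widely between groups while those of Mgat2 and Galnt12 lie together.

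The first question of the design was what separates CD62Llo from CD62Lhi Tregs. In HET, 26 of the 48 tested members passed the test (54.2%), 16 higher and 10 lower in CD62Llo, where 27.7% of all 11431 genes tested passed, 18.8% higher and 8.88% lower. The test was limma on log2(FPKM + 1), two-sided, with p-values adjusted by Benjamini-Hochberg over all genes tested and called at 0.05, and every log2 change is on that scale, which understates the change of low genes. The median log2 change was 0.05 over the members and 0.07 over all genes, so the members moved both ways, but the median absolute change was 0.35 against 0.17. In KO, 16 of 48 passed (33.3%), 11 higher and 5 lower, where 16.2% of all genes passed, 11.9% higher and 4.26% lower. The median absolute change there was 0.25 in members and 0.12 in all genes. All 16 members called in KO were called in the same direction in HET, which is 100% of the KO calls and 61.5% of the HET calls. Over all genes called, the shares were 89.96% of the KO calls and 52.7% of the HET calls, near those of the members. The comparisons share no library, but both come from the same fit and share its estimate of the spread. In bulk RNA, fewer cells that express a gene and less RNA per cell cannot be told apart.

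Rescaling moved the split of these counts. Under quantile normalization the calls between KO fractions were 8 higher and 10 lower (44.4% higher, against 68.8% without it), and under median centring 9 and 9 (50.0%). Between HET fractions the splits were 14 and 12 and 15 and 12. These scalings shifted the median of all genes by -0.10 on the log2 scale between HET fractions. Without KO CD62Lhi replicate 3, 7 members were called higher between KO fractions, and without KO CD62Llo replicate 3 the count was 11 higher and 4 lower. Ranges did not overlap between HET fractions for 35 members and between KO fractions for 26, where 53.9% and 34.8% of all genes did not.

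**Figure D2:**
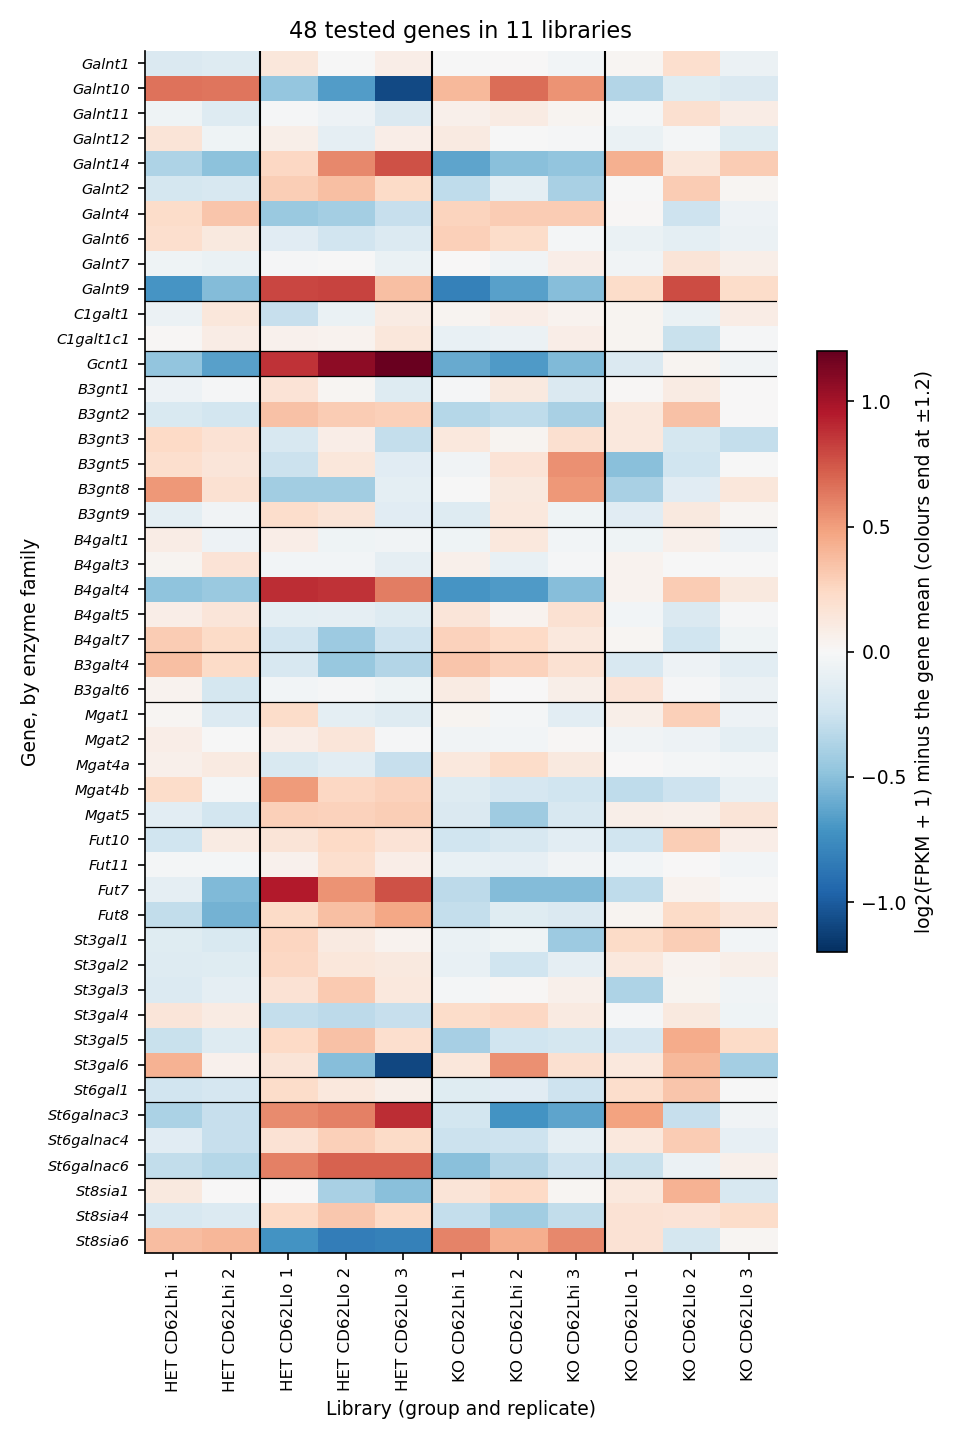
Log2(FPKM + 1) minus each gene's mean over the 11 libraries (colour, with its limits on the scale bar) for the 48 tested members in rows, by family, and libraries in columns by group. Gcnt1, B4galt4, Galnt9 and St6galnac6 are red in the 3 HET CD62Llo libraries, Galnt10 and St8sia6 are blue there, and C1galt1c1 and B4galt1 stay pale throughout.

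Among the enzymes of O-glycan initiation, 4 of the 10 tested Galnt genes rose, 3 fell and 3 were not called between HET fractions, and 3 rose and 2 fell between KO fractions. Galnt10, a GALNT that acts on peptides already glycosylated, was 46.4 and 46.1 FPKM in HET CD62Lhi and 20.8, 17.9 and 13.3 in HET CD62Llo. The KO values were 38.4, 47.1 and 42.9 FPKM in CD62Lhi and 22.7, 26.2 and 25.7 in CD62Llo. Every CD62Llo library lay below every CD62Lhi library in both genotypes. Its log2 change was -1.39 ± 0.16 (SE) in HET (adjusted p = 0.000221) and -0.76 ± 0.14 (SE) in KO (adjusted p = 0.00588). Galnt6, the most abundant GALNT here, was 55.7 and 52.6 FPKM in HET CD62Lhi and 43.9, 41 and 43 in HET CD62Llo, a fall of smaller size (log2 change -0.34 ± 0.08 (SE), adjusted p = 0.0148). Without HET CD62Lhi replicate 1 that call was lost (adjusted p = 0.11). In KO, Galnt6 was 59.1, 56.5 and 47.4 FPKM and then 45.5, 44.4 and 46, just short of the threshold (adjusted p = 0.0511), and it was called in 5 alternatives, among them without KO CD62Lhi replicate 3 (adjusted p = 0.00433), with the replicate number as a block (0.0433) and under the rescalings (0.0214 and 0.0125). Galnt4 fell in HET from 6.94 ± 0.444 (SD, n = 2) to 4.05 ± 0.31 (SD, n = 3) FPKM and in KO from 7.01 ± 0.122 (SD, n = 3) to 5.13 ± 0.566 (SD, n = 3). Its log2 changes were -0.65 ± 0.09 (SE) and -0.39 ± 0.08 (SE), but its entry lies within Poc1b on the same strand, so the reads of both genes cannot be told apart with certainty.

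The Galnt genes that rose in CD62Llo included low ones. Galnt9 was 1.68 and 2.06 FPKM in HET CD62Lhi and 6.67, 6.71 and 4.65 in HET CD62Llo. It was 1.51, 1.8 and 2.08 FPKM in KO CD62Lhi and 4.13, 6.58 and 4.11 in CD62Llo. All CD62Llo libraries stood above all CD62Lhi libraries, with a ratio of group means of 3.21 in HET and 2.75 in KO and log2 changes of 1.28 ± 0.20 (SE) and 1.07 ± 0.18 (SE). Galnt14 rose from 0.36 and 0.247 FPKM to 1.08, 1.62 and 1.98 in HET (log2 change 0.96 ± 0.16 (SE), adjusted p = 0.00172). In KO it rose from 0.132, 0.24 and 0.264 to 1.36, 0.926 and 1.16 FPKM (log2 change 0.82 ± 0.14 (SE), adjusted p = 0.00409). These low Galnt14 values were 5.14 and 5.42 times as high in CD62Llo on the linear scale. Galnt2, a widely expressed initiator, was 21.6 ± 0.168 (SD, n = 2) FPKM in HET CD62Lhi and 31 ± 1.43 (SD, n = 3) in HET CD62Llo, and 20.6 ± 2.16 (SD, n = 3) and 27.2 ± 3.43 (SD, n = 3) in the KO fractions. Its log2 changes were 0.50 ± 0.10 (SE) and 0.38 ± 0.09 (SE), and the KO call was lost when KO CD62Lhi replicate 1 or 3, or else KO CD62Llo replicate 2, was left out (adjusted p = 0.075, 0.0779 and 0.0611), and in a fit of the 6 KO libraries alone (0.0759). Galnt1 was 28.2 and 28.4 FPKM in HET CD62Lhi and 35.2, 31.7 and 33.6 in HET CD62Llo. It was 31.7, 31.9 and 31 FPKM in KO CD62Lhi and 32.5, 36.8 and 30.3 in CD62Llo, where it was not called. Its HET call (log2 change 0.23 ± 0.08 (SE), adjusted p = 0.0477) was lost in 12 of 19 alternatives, among them both rescalings (0.0737 and 0.16) and leaving out HET CD62Lhi replicate 1 or 2, HET CD62Llo replicate 1 or 3, any KO CD62Lhi library or KO CD62Llo replicate 1 (adjusted p = 0.0607 to 0.182).

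C1galt1 and C1galt1c1 were not called in any comparison, while Gcnt1 rose in CD62Llo. C1galt1, the core 1 synthase, was 12.5 and 14.5 FPKM in HET CD62Lhi and 10.6, 12.3 and 14.1 in HET CD62Llo, with 13.5, 13.9 and 13.5 in KO CD62Lhi and 13.4, 12.4 and 14 in CD62Llo. The groups overlapped, and the 95% interval of its log2 change was -0.36 to 0.11 in HET and -0.25 to 0.17 in KO. C1galt1c1, the chaperone that C1GALT1 needs, had intervals of -0.18 to 0.24 and -0.24 to 0.13 around group means of 8.53, 8.74, 8.05 and 7.74 FPKM in the same order of groups. Gcnt1, the core 2 enzyme, was 0.722 and 0.523 FPKM in HET CD62Lhi and 3.38, 4.05 and 4.45 in HET CD62Llo. In KO it was 0.572, 0.493 and 0.66 FPKM in CD62Lhi and 1.12, 1.45 and 1.32 in CD62Llo. The 3 HET CD62Llo libraries stood above all others, and the KO CD62Llo libraries stood between them and the CD62Lhi libraries of both genotypes. Gcnt1 had the largest log2 change of any member between HET fractions, 1.61 ± 0.12 (SE) (adjusted p = 2.34e-05), a ratio of means of 6.36. Between KO fractions the change was 0.54 ± 0.11 (SE) (adjusted p = 0.00745), a ratio of 2.26, and under quantile normalization the adjusted p was 0.0828. No other Gcnt gene was tested, and the highest untested one, Gcnt2, reached 0.741 FPKM in 1 library.

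Of the 6 tested B3gnt genes, B3gnt2 rose in both genotypes and B3gnt8 fell in HET. B3gnt2 was 48.3 and 47 FPKM in HET CD62Lhi and 70.4, 68.1 and 67.1 in HET CD62Llo. It was 43.2, 44.2 and 41.7 FPKM in KO CD62Lhi and 60.1, 70.4 and 55.1 in CD62Llo. Its fractions separated in both genotypes, with log2 changes of 0.51 ± 0.09 (SE) and 0.51 ± 0.08 (SE) (adjusted p = 0.00199 and 0.00239). B3gnt8, which assists B3GNT2 on branched N-glycans, was 1.44 and 0.928 FPKM in HET CD62Lhi and 0.271, 0.276 and 0.566 in HET CD62Llo (log2 change -0.67 ± 0.21 (SE), adjusted p = 0.0381). These values are near or below 1 FPKM, and no CD62Llo library reached that minimum. The KO groups overlapped. With no minimum FPKM the HET call was lost (adjusted p = 0.0523), as it was without HET CD62Lhi replicate 2 or HET CD62Llo replicate 1 or 2 (adjusted p = 0.059, 0.0841 and 0.0969). Without KO CD62Lhi replicate 2 it was 0.0548. B3gnt1, B3gnt3, B3gnt5 and B3gnt9 were not called in either genotype.

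Of the 5 tested B4galt genes, B4galt4 rose and B4galt5 and B4galt7 fell in HET. B4galt4, which favours sulfated acceptors, was 0.992 and 1.04 FPKM in HET CD62Lhi and 4.13, 4.09 and 3.27 in HET CD62Llo. The KO values were 0.703, 0.74 and 0.958 FPKM in CD62Lhi and 1.87, 2.44 and 2.02 in CD62Llo. The order of groups was that of Gcnt1, with HET CD62Llo highest and KO CD62Llo between it and the CD62Lhi groups. This was a log2 change of 1.25 ± 0.12 (SE) in HET (adjusted p = 7.66e-05) and 0.79 ± 0.10 (SE) in KO (adjusted p = 0.00108). B4galt1, the most abundant of the family, was 31.3 and 28.1 FPKM in HET CD62Lhi and 31.1, 28.4 and 28.6 in HET CD62Llo, with overlapping groups and an interval of -0.19 to 0.15. In KO its interval was -0.18 to 0.12.

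B4galt7, B3galt4 and B4galt5, which act on proteoglycans and glycosphingolipids, fell in HET CD62Llo. B4galt7, which starts the linker of glycosaminoglycan chains, was 21.3 ± 0.808 (SD, n = 2) FPKM in HET CD62Lhi and 14 ± 1.17 (SD, n = 3) in HET CD62Llo (log2 change -0.57 ± 0.09 (SE), adjusted p = 0.00141). In KO it was 20.4 ± 1.1 (SD, n = 3) FPKM and then 16.4 ± 1.56 (SD, n = 3) (log2 change -0.30 ± 0.08 (SE), adjusted p = 0.0322), a call lost without any 1 of the KO CD62Lhi replicates 1 and 2 and KO CD62Llo replicates 2 and 3 (adjusted p = 0.11, 0.0989, 0.105 and 0.0502). It was also lost with no minimum FPKM (0.0507) and in the 6 KO libraries alone (0.0622). B3galt4, a ganglioside synthase, was 18 and 16.2 FPKM in HET CD62Lhi and 11.9, 9.73 and 10.6 in HET CD62Llo. It was 17.5, 16.9 and 15.7 FPKM in KO CD62Lhi and 11.9, 13.2 and 12.5 in CD62Llo. Ranges separated in both genotypes, with log2 changes of -0.63 ± 0.09 (SE) and -0.39 ± 0.08 (SE) (adjusted p = 0.000626 and 0.00817). B4galt5, a lactosylceramide synthase, was 8.15 and 8.56 FPKM in HET CD62Lhi and 7.01, 7.06 and 6.78 in HET CD62Llo. It was 8.57, 7.9 and 8.85 FPKM in KO CD62Lhi and 7.48, 6.71 and 7.59 in CD62Llo, where it was called under the rescalings alone (adjusted p = 0.0246 and 0.0284, against 0.0576). It fell by 0.23 on the log2 scale in HET (adjusted p = 0.0281), which was lost in the 5 HET libraries alone (0.0556) and without any 1 of the HET CD62Lhi libraries (adjusted p = 0.0814 and 0.166) or HET CD62Llo replicate 2 or 3 (0.0549 and 0.0711). B3galt6, which adds the next sugar of the glycosaminoglycan linker, was not called (interval -0.17 to 0.27 in HET), and neither was St3gal5, the GM3 synthase, with log2 changes of 0.47 ± 0.17 (SE) and 0.44 ± 0.15 (SE) (adjusted p = 0.0621 and 0.0787).

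Of the 5 tested Mgat genes, 1 rose and 1 fell between HET fractions and 1 rose between KO fractions. MGAT5 makes the beta1,6 branch that poly-N-acetyllactosamine favours. Mgat5 was 8.19 and 7.64 FPKM in HET CD62Lhi and 11.2, 11.2 and 11.4 in HET CD62Llo. In KO it was 7.91, 6.47 and 7.81 FPKM in CD62Lhi and 9.57, 9.48 and 10.2 in CD62Llo. CD62Llo libraries were higher without overlap in both genotypes, with log2 changes of 0.46 ± 0.08 (SE) and 0.36 ± 0.07 (SE) (adjusted p = 0.00232 and 0.00789). Mgat1 was 33.7 and 29.6 FPKM in HET CD62Lhi and 38.9, 30.6 and 29.8 in HET CD62Llo, with overlapping groups and an interval of -0.24 to 0.35. Mgat2, the next enzyme of the pathway, had intervals of -0.10 to 0.16 in HET and -0.17 to 0.06 in KO. Mgat4a, which makes the beta1,4 branch, fell from 5.43 ± 0.156 (SD, n = 2) to 4.29 ± 0.281 (SD, n = 3) FPKM in HET (log2 change -0.28 ± 0.06 (SE), adjusted p = 0.00982), and the adjusted p was 0.079 without HET CD62Lhi replicate 2 and 0.0623 in the 5 HET libraries alone. In KO its change was -0.17 ± 0.06 (SE) (adjusted p = 0.0801), and it was called lower under quantile normalization (log2 change -0.28, adjusted p = 0.00876) and median centring (log2 change -0.25, adjusted p = 0.0164).

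Of the 4 tested Fut genes, 2 rose and 0 fell between HET fractions, and 1 rose between KO fractions. Fut7, the enzyme that completes sialyl Lewis x in leukocytes, was 1.17 and 0.619 FPKM in HET CD62Lhi and 3.52, 2.4 and 2.96 in HET CD62Llo. It was 0.885, 0.633 and 0.624 FPKM in KO CD62Lhi and 0.891, 1.4 and 1.33 in CD62Llo. The HET CD62Llo libraries stood clear of all others, whereas the KO CD62Llo libraries lay only just above KO CD62Lhi (1.21 against 0.714 FPKM on average). The log2 change was 1.07 ± 0.17 (SE) in HET (adjusted p = 0.00151) and 0.36 ± 0.15 (SE) in KO, where it was not called (adjusted p = 0.15). Fut4, the other leukocyte alpha1,3-fucosyltransferase, stayed at or below 0.269 FPKM in every library and was not tested. Fut8 was 8.82 and 7.11 FPKM in HET CD62Lhi and 13.1, 14.5 and 15.7 in HET CD62Llo. It was 8.9, 9.93 and 9.65 FPKM in KO CD62Lhi and 11.3, 13.2 and 12.4 in CD62Llo. The fractions separated in both, with log2 changes of 0.78 ± 0.10 (SE) (adjusted p = 0.000472) and 0.34 ± 0.09 (SE) (adjusted p = 0.0323), and the KO call was lost when any 1 of KO CD62Lhi replicates 1, 2 and 3 and KO CD62Llo replicates 2 and 3 was left out (adjusted p = 0.113, 0.0621, 0.0718, 0.116 and 0.0675). Both rescalings also ended it (adjusted p = 0.0776 and 0.0718), as did setting no minimum FPKM (0.055). Fut10 and Fut11 were not called.

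**Figure D3:**
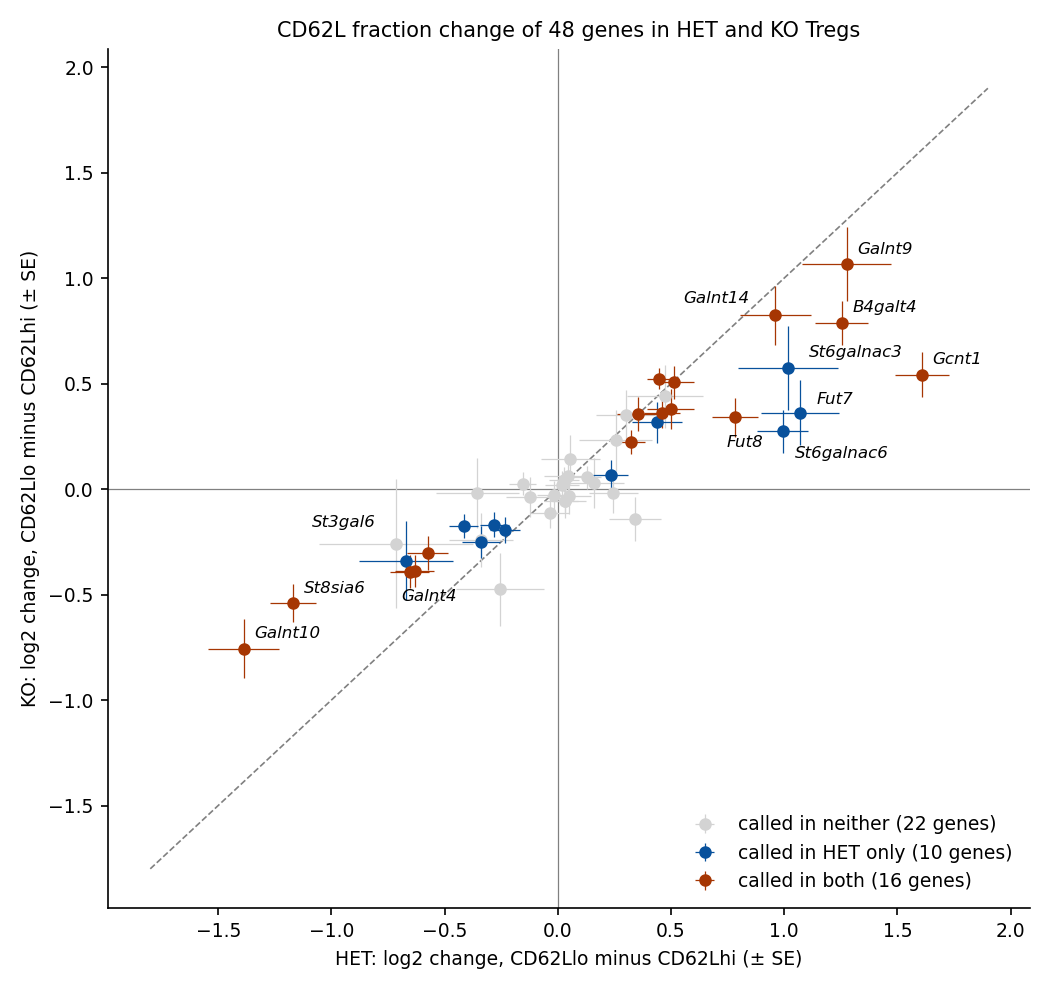
Log2 change from CD62Lhi to CD62Llo in HET (x axis) and KO (y axis), in log2(FPKM + 1) units with SE bars, for the 48 tested members; the dashed line marks equal change. The 16 members called in both lie in the upper right or lower left, and Gcnt1 lies farthest to the right at 1.61 in HET and 0.54 in KO.

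Sialyltransferases moved in both directions. St6gal1 was 53.4 and 54.7 FPKM in HET CD62Lhi and 73.3, 68.8 and 66.2 in HET CD62Llo. It was 56.6, 57.2 and 52.9 FPKM in KO CD62Lhi and 73, 79.6 and 62.7 in CD62Llo. Ranges were apart in both genotypes and the log2 changes were near each other, 0.35 ± 0.09 (SE) and 0.36 ± 0.08 (SE) (adjusted p = 0.017 and 0.016). Leaving out HET CD62Lhi replicate 1 or 2 ended the HET call (adjusted p = 0.101 and 0.0716), and the KO call ended when KO CD62Lhi replicate 3, or else KO CD62Llo replicate 1, was left out (0.0584 and 0.0513), or in the 6 KO libraries alone (0.0557). St8sia4, a polysialic acid synthase, was 20.4 and 20.7 FPKM in HET CD62Lhi and 27.8, 29.6 and 27.8 in HET CD62Llo. It was 19, 17.3 and 18.8 FPKM in KO CD62Lhi and 26.6, 26.4 and 27.5 in CD62Llo. It had the smallest adjusted p of the members between KO fractions (0.000187, log2 change 0.52 ± 0.05 (SE)) and a change of 0.45 ± 0.06 (SE) in HET (adjusted p = 0.000351).

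St8sia6, which makes disialic acid on O-glycans, went the other way. It was 28.7 and 29.2 FPKM in HET CD62Lhi and 13, 11.9 and 12 in HET CD62Llo. The KO values were 33.6, 30.2 and 33.2 FPKM in CD62Lhi and 24.8, 18.8 and 22.4 in CD62Llo. HET CD62Llo was lowest, with no library above 13.0 FPKM, and the KO CD62Llo libraries stood between it and both CD62Lhi groups. Its log2 change was -1.17 ± 0.10 (SE) in HET (adjusted p = 4.98e-05) and -0.54 ± 0.09 (SE) in KO (adjusted p = 0.00356). St8sia1, the GD3 synthase, was not called, with intervals of -0.77 to 0.06 in HET and -0.39 to 0.35 in KO.

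The 3 tested St6galnac genes, which add sialic acid to the O-glycan core or to gangliosides, were all called higher in HET CD62Llo. With all libraries none was called between KO fractions, but each was when 1 KO CD62Llo library was left out. St6galnac6 was 1.17 and 1.11 FPKM in HET CD62Lhi and 3.06, 3.37 and 3.35 in HET CD62Llo. In KO it was 0.89, 1.09 and 1.25 FPKM in CD62Lhi and 1.22, 1.55 and 1.78 in CD62Llo, with overlap. The changes were 0.99 ± 0.11 (SE) (adjusted p = 0.000236) and 0.27 ± 0.10 (SE) (adjusted p = 0.103, and 0.0452 without KO CD62Llo replicate 1). St6galnac3 was 1.52 ± 0.132 (SD, n = 2) FPKM in HET CD62Lhi and 4.13 ± 0.633 (SD, n = 3) in HET CD62Llo (log2 change 1.02 ± 0.22 (SE), adjusted p = 0.00781), and 0.0575 was the adjusted p without HET CD62Lhi replicate 1. In KO, St6galnac3 was 1.73, 0.93 and 1.04 FPKM and then 3.43, 1.61 and 2.08 (log2 change 0.57 ± 0.20 (SE), adjusted p = 0.0834, and 0.0472 without KO CD62Llo replicate 2). St6galnac4 was 7.66 ± 0.585 (SD, n = 2) FPKM and then 10.7 ± 0.476 (SD, n = 3) in HET (log2 change 0.44 ± 0.11 (SE), adjusted p = 0.0148), with an adjusted p of 0.113 without HET CD62Lhi replicate 2 and 0.0528 under quantile normalization. Without KO CD62Llo replicate 3, St6galnac4 was called between KO fractions (adjusted p = 0.00936, against 0.0555 with it). St6galnac4 and St6galnac6 lie 12 bases apart on chromosome 2, and the authors' deposited table of group values lists both under 1 entry, so the division of reads between them is uncertain.

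Of the 6 alpha2,3-sialyltransferases, 1 rose and 1 fell between HET fractions and 1 rose between KO fractions. St3gal4, which caps N-acetyllactosamine on the way to sialyl Lewis x, was 17.3 and 16.7 FPKM in HET CD62Lhi and 12.6, 12.3 and 12.6 in HET CD62Llo. The KO values were 18.3, 18.6 and 16.7 FPKM in CD62Lhi and 15.3, 16.9 and 15 in CD62Llo, with overlap. It fell in HET (log2 change -0.42 ± 0.06 (SE), adjusted p = 0.00126) and was not called in KO (log2 change -0.17 ± 0.06 (SE), adjusted p = 0.0702). It was called there under quantile normalization (log2 change -0.24, adjusted p = 0.00846) and median centring (log2 change -0.25, adjusted p = 0.0058). It was also called when KO CD62Lhi replicate 3, or else KO CD62Llo replicate 2, was left out (adjusted p = 0.048 and 0.0358). St3gal2 rose in HET from 11.5 ± 0.0861 (SD, n = 2) to 14.7 ± 0.794 (SD, n = 3) FPKM and in KO from 11.6 ± 0.716 (SD, n = 3) to 13.7 ± 0.448 (SD, n = 3) (log2 changes 0.32 ± 0.06 (SE) and 0.22 ± 0.06 (SE), adjusted p = 0.005 and 0.0276). The KO call of St3gal2 was lost in 8 of 19 alternatives, with an adjusted p of 0.13 and 0.151 under the rescalings. Leaving out KO CD62Lhi replicate 2 or 3 or any KO CD62Llo library also ended it (adjusted p = 0.0516 to 0.101).

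St3gal1 was higher in each CD62Llo library than in any CD62Lhi library of its genotype, 25.9 and 25.2 FPKM and then 34.6, 30.9 and 29.6 in HET. In KO it was 27.1, 27.7 and 21 FPKM and then 33.8, 35.4 and 28. It was not called (adjusted p = 0.118 and 0.0732), although it was with the replicate number as a block (0.00606 and 0.00846) and, in KO, without KO CD62Llo replicate 3 (0.0302). St3gal6 was 4.02 and 2.89 FPKM in HET CD62Lhi and 3.17, 1.64 and 0.766 in HET CD62Llo. The HET CD62Llo libraries spread over more than the distance between the groups, and the interval of the log2 change was -1.48 to 0.05. Without HET CD62Llo replicate 1 the adjusted p was 0.029.

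The other question was what differed within a fraction when both Ezh2 alleles were floxed. In CD62Lhi, 0 of 48 members passed the limma test, as did 0 of all genes (0%), and at an unadjusted p under 0.05 there were 3 members and 328 genes. The 95% intervals of the log2 change from HET to KO were -0.31 to 0.22 for Gcnt1, -0.52 to 0.25 for Fut7, -0.07 to 0.38 for St8sia6 and -0.16 to 0.24 for St6gal1. Mgat4b, which makes the same branch as Mgat4a, had the largest change of any member in CD62Lhi, -0.30 ± 0.11 (SE), and its values of 4.12 and 3.33 FPKM in HET and 2.96, 2.82 and 2.73 in KO did not overlap (adjusted p = 1). Ranges did not overlap for 12 members here, against 22.2% of all genes.

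In CD62Llo, 7 of 48 members passed (14.6%), 2 higher and 5 lower in KO, where 4.6% of all genes passed, 1.36% higher and 3.25% lower. The median log2 change was -0.05 over members and -0.03 over all genes. Under quantile normalization the split was 4 higher and 5 lower (44.4% higher, against 28.6%), and under median centring 3 and 5. Without KO CD62Llo replicate 3 it was again 2 and 5, and without replicate 2, which had the highest myeloid sum, 3 and 6. Without KO CD62Llo replicate 1 the counts were 1 higher and 2 lower, and 1 member was called higher without HET CD62Llo replicate 2 or replicate 3. Ranges did not overlap for 20 members, against 20.2% of all genes. This comparison uses the CD62Llo libraries that also enter the comparisons between fractions, so the values of each are given side by side.

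Gcnt1 (chr19:17326141-17372844 in mm10) was lowest against HET, with 1.12, 1.45 and 1.32 FPKM in KO CD62Llo and 3.38, 4.05 and 4.45 in HET CD62Llo. Every KO library was below every HET library. This was a log2 change of -1.11 ± 0.11 (SE) (95% interval -1.35 to -0.87, adjusted p = 0.00172), and KO held 0.327 of the HET mean. It was -0.04 in CD62Lhi, while the change between fractions was 1.61 in HET and 0.54 in KO. St6galnac6 (chr2:32599709-32620804) was 1.22, 1.55 and 1.78 FPKM in KO and 3.06, 3.37 and 3.35 in HET, again apart. Its log2 change was -0.77 ± 0.10 (SE) (adjusted p = 0.00512), next to -0.05 in CD62Lhi. Both calls held in all 19 alternatives.

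Fut7 (chr2:25423694-25426373) was 0.891, 1.4 and 1.33 FPKM in KO CD62Llo and 3.52, 2.4 and 2.96 in HET CD62Llo. The KO libraries were all below the HET libraries, at 0.409 of the HET mean. The log2 change was -0.84 ± 0.15 (SE) (adjusted p = 0.0172), and the adjusted p was 0.0681 without KO CD62Llo replicate 1, 0.0532 without HET CD62Llo replicate 3 and 0.0687 in a fit of these 6 libraries alone. B4galt4 (chr16:38742264-38769045) was 1.87, 2.44 and 2.02 FPKM in KO and 4.13, 4.09 and 3.27 in HET, without overlap. Its log2 change was -0.63 ± 0.10 (SE) (adjusted p = 0.0121), with adjusted p of 0.0553 without HET CD62Llo replicate 2, 0.0527 without KO CD62Llo replicate 1 and 0.0734 in the 6 libraries alone. Mgat4b (chr11:50225335-50235103) was 2.56, 2.7 and 3.12 FPKM in KO and 5.25, 4.23 and 4.33 in HET, apart as in CD62Lhi. Its log2 change was -0.56 ± 0.10 (SE) (adjusted p = 0.014), and the call was lost without KO CD62Llo replicate 1 (0.0593) and in the 6 libraries alone (0.0768). Mgat4b was not called between fractions, with log2 changes of 0.25 in HET and -0.02 in KO.

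Both members that were higher in KO CD62Llo were sialyltransferases, which was seen after the calls were made. St8sia6 (chr2:13654936-13793520) was 24.8, 18.8 and 22.4 FPKM in KO CD62Llo and 13, 11.9 and 12 in HET CD62Llo. All KO libraries were above all HET libraries, with a ratio of means of 1.79. This was a log2 change of 0.78 ± 0.09 (SE) (95% interval 0.58 to 0.98, adjusted p = 0.0032), held in all 19 alternatives, and was 0.15 in CD62Lhi. St3gal4 (chr9:35046579-35116810) was 15.3, 16.9 and 15 FPKM in KO and 12.6, 12.3 and 12.6 in HET, apart. Its log2 change was 0.31 ± 0.06 (SE) (adjusted p = 0.0184), lost without HET CD62Llo replicate 2 or 3 or KO CD62Llo replicate 1 (0.0771, 0.0508 and 0.0562) and in the 6 libraries alone (0.0966). The St3gal4 entry overlaps 4930581F22Rik on the opposite strand (6.53 FPKM on average). No source used here gives the strand setting of the counting, so their reads may mix.

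**Figure D4:**
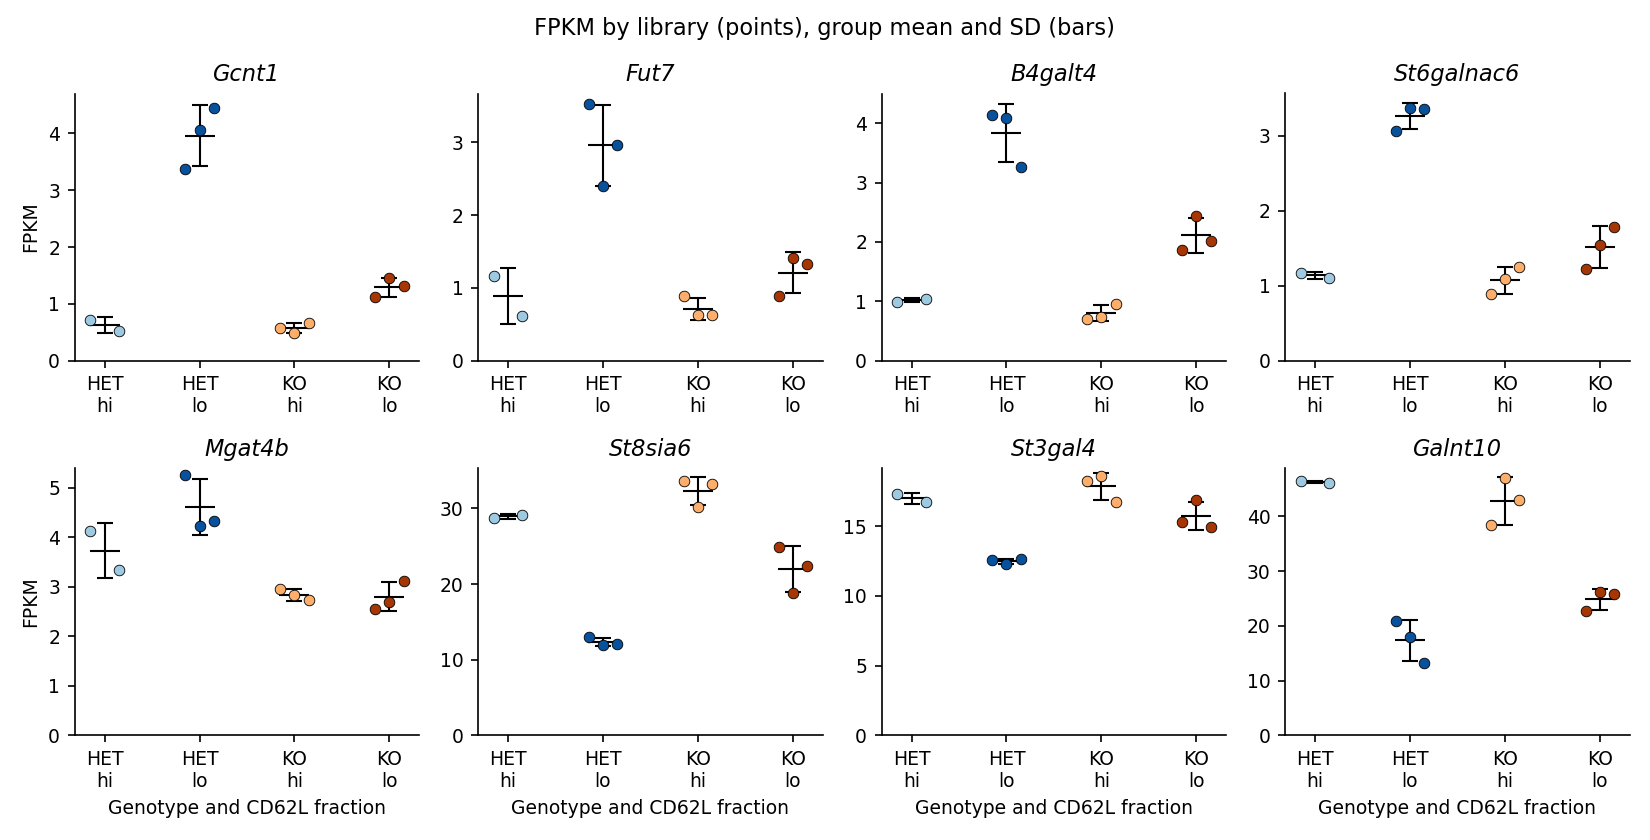
FPKM (linear axes from 0) in each library for the 7 members called between KO and HET in CD62Llo and for Galnt10, with 1 point per library and bars for the group mean and SD. In the HET CD62Llo group Gcnt1 spans 3.38 to 4.45 FPKM and St8sia6 11.9 to 13.0, and the KO CD62Llo points lie between these and the CD62Lhi points for both genes.

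Other members did not pass between genotypes in CD62Llo. Galnt10 was 22.7, 26.2 and 25.7 FPKM in KO and 20.8, 17.9 and 13.3 in HET, without overlap. Its log2 change of 0.52 ± 0.14 (SE) had an adjusted p of 0.0758, and of 0.0445 under quantile normalization, 0.0493 under median centring and 0.029 without HET CD62Llo replicate 1. Galnt4 changed by 0.28 ± 0.08 (SE) (adjusted p = 0.0831, and 0.0258 without KO CD62Llo replicate 2). B3gnt2 had a change of -0.15 ± 0.08 (SE) and was called only without KO CD62Llo replicate 2 (adjusted p = 0.0341). Mgat4a was called higher under quantile normalization alone (adjusted p = 0.0466, against 0.123). St6gal1 was 73, 79.6 and 62.7 FPKM in KO and 73.3, 68.8 and 66.2 in HET, with overlap and an interval of -0.14 to 0.22. For the other core enzymes the interval was -0.11 to 0.31 for C1galt1, -0.35 to 0.03 for C1galt1c1, -0.16 to 0.14 for B4galt1 and -0.24 to 0.29 for St3gal1. St3gal6 had the widest interval, -0.17 to 1.20.

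**Figure D5:**
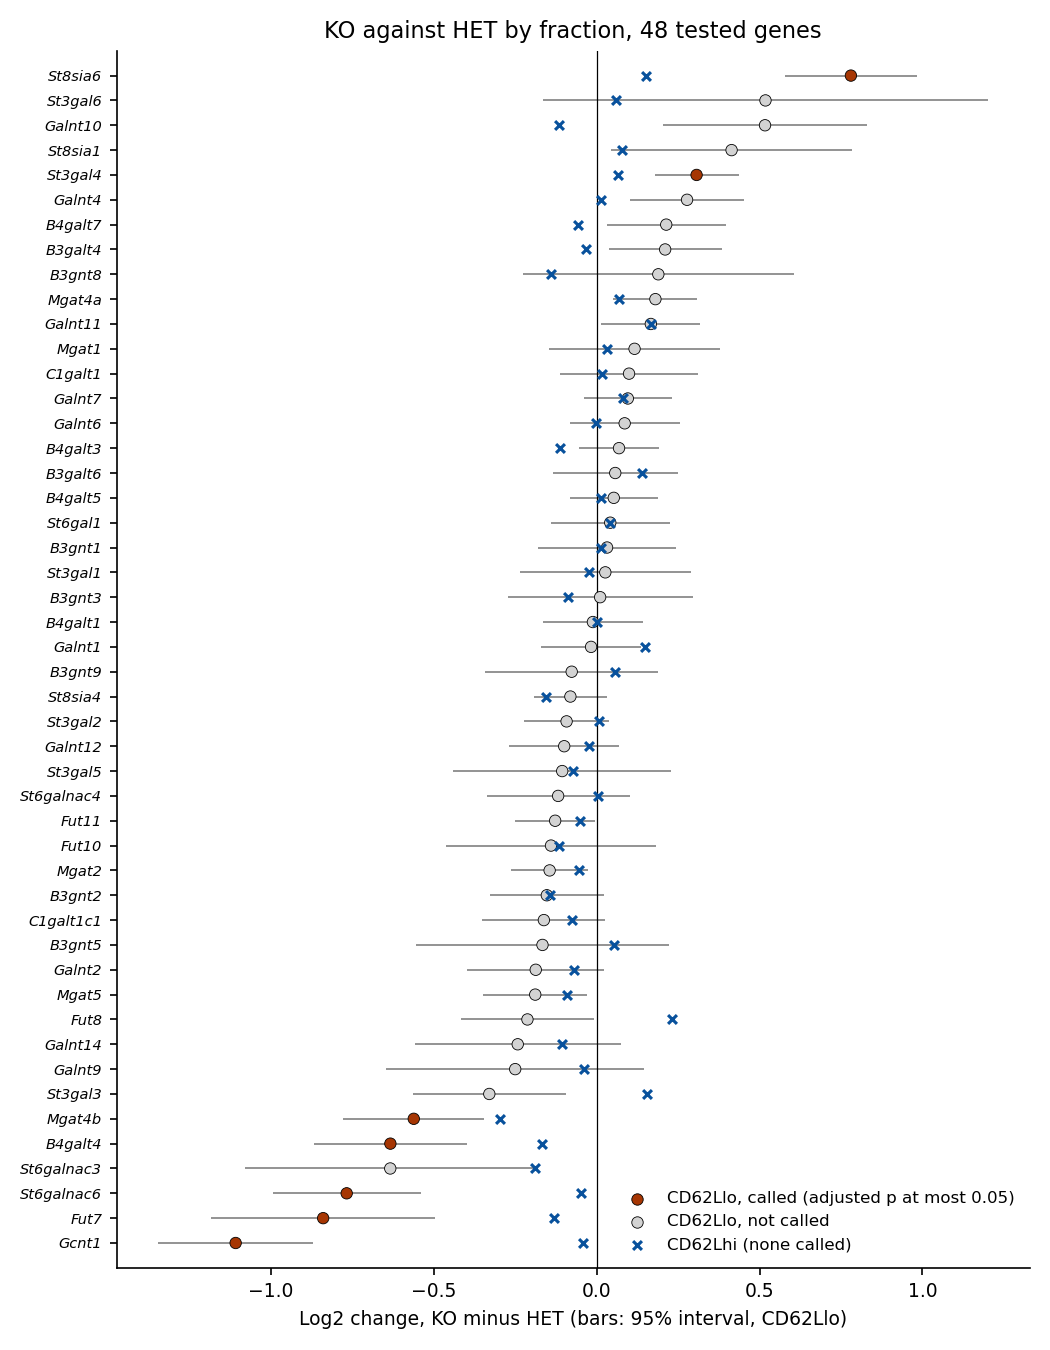
Log2 change from HET to KO in log2(FPKM + 1) units for the 48 tested members, with circles and 95% intervals for CD62Llo and crosses for CD62Lhi. The 7 called members are filled, with Gcnt1 lowest at -1.11 and St8sia6 highest at 0.78, and uncalled members such as St6galnac3 (-0.63), Galnt10 (0.52) and St3gal6 (0.52) lie beyond some of them. The crosses stay within -0.30 and 0.23.

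Whether the change between fractions itself differed between genotypes was tested as an interaction. It was called for 0 of 48 members, against 0.00875% of all genes (1 gene), and at an unadjusted p under 0.05 there were 10 members and 868 genes. The smallest adjusted p of a member was 0.114 for Gcnt1, with a change in KO lower by -1.07 ± 0.16 (SE) on the log2 scale (the interaction printed as KO minus HET). St6galnac6 had an interaction of -0.72 ± 0.15 (SE) and St8sia6 of 0.63 ± 0.13 (SE) (adjusted p = 0.24 and 0.24). Fut7 had -0.71 ± 0.23 (SE) (adjusted p = 0.48), Galnt10 0.63 ± 0.21 (SE) (0.494) and B4galt4 -0.47 ± 0.16 (SE) (0.5). So a difference in the response of these genes to the fraction was not shown. Of the 16 members called in both genotypes, 14 had the larger change in HET, a share close to the 88.7% (1478 of 1666) over all genes called in both.

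The promoter sequence upstream of 5 members called between genotypes in CD62Llo is shown. The reason is that their group means had the same order (HET CD62Llo highest, then KO CD62Llo, then the CD62Lhi groups) or its mirror image. For Fut7 and St3gal4 the order held for the means only, as libraries of KO CD62Llo and CD62Lhi overlapped. St6galnac6 had that order of means too, with such overlap, but is not shown, since it starts 12 bases from St6galnac4. The genes shown were chosen after their values were seen. Sequences are the 250 bases before a RefSeq start site in GRCm38.p6, read 5′ to 3′ on the gene's strand, with each CG dinucleotide in capitals. CG reads the same on both strands and was the only motif searched, and, as background, PRC2 is known to bind CG-rich promoters.
Gcnt1 (chr19:17372845-17373094, minus strand): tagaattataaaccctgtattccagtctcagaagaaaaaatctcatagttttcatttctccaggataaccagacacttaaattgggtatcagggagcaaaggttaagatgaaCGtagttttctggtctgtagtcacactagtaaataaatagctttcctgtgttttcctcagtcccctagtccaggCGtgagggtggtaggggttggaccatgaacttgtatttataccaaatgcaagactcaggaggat
Fut7 (chr2:25423444-25423693, plus strand): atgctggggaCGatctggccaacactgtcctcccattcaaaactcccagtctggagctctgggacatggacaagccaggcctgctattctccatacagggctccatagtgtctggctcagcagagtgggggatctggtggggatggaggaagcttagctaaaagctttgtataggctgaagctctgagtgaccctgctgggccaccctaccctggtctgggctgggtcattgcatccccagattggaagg
B4galt4 (chr16:38742009-38742258, plus strand): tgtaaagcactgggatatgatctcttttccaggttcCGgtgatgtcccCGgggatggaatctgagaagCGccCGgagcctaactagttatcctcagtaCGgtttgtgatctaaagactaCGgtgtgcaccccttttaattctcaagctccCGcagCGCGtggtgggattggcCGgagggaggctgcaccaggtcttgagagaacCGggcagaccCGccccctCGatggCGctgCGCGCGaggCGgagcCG
St8sia6 (chr2:13793521-13793770, minus strand): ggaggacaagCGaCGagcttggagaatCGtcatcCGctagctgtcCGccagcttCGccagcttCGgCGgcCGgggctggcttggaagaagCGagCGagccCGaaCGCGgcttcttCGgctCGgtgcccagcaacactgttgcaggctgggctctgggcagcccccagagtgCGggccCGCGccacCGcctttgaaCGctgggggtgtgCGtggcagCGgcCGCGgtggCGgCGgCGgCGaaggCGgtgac
St3gal4 (chr9:35116865-35117114, minus strand): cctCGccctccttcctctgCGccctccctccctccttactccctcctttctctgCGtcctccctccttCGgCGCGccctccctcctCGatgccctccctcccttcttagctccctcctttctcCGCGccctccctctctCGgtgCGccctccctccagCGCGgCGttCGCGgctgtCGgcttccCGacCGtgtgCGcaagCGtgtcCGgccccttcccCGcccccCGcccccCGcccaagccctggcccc

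The Gcnt1 stretch held 2 CG and the Fut7 stretch 1, and of all 32851 promoter entries 71.0% and 81.2% held more in the same 250 bases. The B4galt4 stretch held 19, exceeded by 17.9% of entries. Of the members higher in KO CD62Llo, the St8sia6 stretch held 30 and the St3gal4 stretch 25, exceeded by 5.19% and 9.59%. The 3 members shown that were lower in KO CD62Llo did not share a CG content. Gcnt1 had 3 start sites and Fut7 had 2 in the RefSeq table, and for each the one nearest the start in the files is shown. RefSeq promoter entries were matched for 58 of 81 members. In the 300-base entries, which run from 250 bases before to 50 after the start, the median CG count was 23 in the 38 tested members matched, 16.5 in the 20 untested ones and 7 in all entries.

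Genes that supply, trim, remove and read glycans were described from lists of their own, whose shares of called genes are set beside those over all genes tested (27.7% between HET fractions, 16.2% between KO fractions and 4.6% between genotypes in CD62Llo). Of 31 tested genes of sugar nucleotide supply, 3 rose and 3 fell between HET fractions, 2 rose and 1 fell between KO fractions, and 1 was higher and 2 lower in KO CD62Llo than in HET CD62Llo. These are 19.4%, 9.68% and 9.68% of the list, fewer than over all genes between fractions. Galm, a galactose mutarotase, was 8.84 and 7.74 FPKM in HET CD62Lhi and 24.6, 23 and 28.1 in HET CD62Llo, with 7.12, 7.22 and 6.7 in KO CD62Lhi and 13.5, 17.7 and 14.7 in CD62Llo. Its log2 changes were 1.50 ± 0.11 (SE) between HET fractions, 1.02 ± 0.10 (SE) between KO fractions and -0.69 ± 0.10 (SE) between genotypes in CD62Llo. Cmah, which converts the sialic acid Neu5Ac to Neu5Gc, was 25.3 and 27.3 FPKM in HET CD62Lhi and 14.7, 16.2 and 16 in HET CD62Llo, with 25.3, 30.9 and 29.1 and 20.4, 19.9 and 22.8 in the KO fractions. It fell by 0.71 on the log2 scale between HET fractions and by 0.42 between KO fractions, and was higher by 0.40 ± 0.08 (SE) in KO CD62Llo (adjusted p = 0.0261).

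Of 10 N-glycan trimming genes, 5 rose and 0 fell between HET fractions and 3 and 0 between KO fractions, and 1 was lower in KO CD62Llo (50%, 30% and 10%). That gene was Man2a2, the mannosidase that acts between MGAT1 and MGAT2, at 21.2 ± 2.01 (SD, n = 3) FPKM in HET and 15.2 ± 0.382 (SD, n = 3) in KO (log2 change -0.45 ± 0.08 (SE), adjusted p = 0.018). Man1c1, an earlier mannosidase, rose by 0.85 ± 0.13 (SE) and 1.02 ± 0.12 (SE) between fractions. Of 26 tested transferases of other families, 4 rose and 3 fell between HET fractions, 3 rose and 1 fell between KO fractions, and 2 were lower in KO CD62Llo (26.9%, 15.4% and 7.69%, close to the shares over all genes between fractions). B4galnt4, which makes the LacdiNAc unit, was 2.29 and 1.96 FPKM in HET CD62Lhi and 22, 20.1 and 20.4 in HET CD62Llo. It was 1.81, 1.48 and 1.44 FPKM in KO CD62Lhi and 11.2, 12 and 10.1 in CD62Llo. Its groups followed the order of Gcnt1, with log2 changes of 2.81 ± 0.09 (SE), 2.23 ± 0.08 (SE) and, between genotypes in CD62Llo, -0.85 ± 0.08 (SE). Lfng, which extends O-fucose on Notch, fell by 0.80 and 0.43 on the log2 scale between HET and KO fractions.

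Of 10 tested glycan-removing genes, 5 rose and 1 fell between HET fractions, 2 rose between KO fractions and 1, Fuca2, was lower in KO CD62Llo (log2 change -0.34 ± 0.08 (SE)). These are 60%, 20% and 10% of the list. Of 15 tested sulfotransferases and scaffolds, 5 rose and 3 fell in HET, 3 rose and 2 fell in KO and 1 was lower in KO CD62Llo (53.3%, 33.3% and 6.67%). That gene was Chst2, a GlcNAc-6-sulfotransferase, at 0.787 and 0.672 FPKM in HET CD62Lhi and 6.69, 6.72 and 5.44 in HET CD62Llo, and 0.434, 0.489 and 0.781 and 3.62, 4.13 and 3.28 in the KO fractions. Its changes were 2.07 ± 0.13 (SE), 1.58 ± 0.11 (SE) and, between genotypes in CD62Llo, -0.64 ± 0.11 (SE) (adjusted p = 0.016). Cd44, a glycoprotein of activated T cells that can carry selectin ligands, rose by 1.44 ± 0.13 (SE) and 1.15 ± 0.12 (SE) between fractions. Of 17 tested lectins, 4 rose and 4 fell in HET, 2 rose and 4 fell in KO and 3 were lower in KO CD62Llo (47.1%, 35.3% and 17.6%). Among them Klrg1, a receptor of activated T cells, was 0.224 ± 0.131 (SD, n = 2) FPKM in HET CD62Lhi, 6.27 ± 4.12 (SD, n = 3) in HET CD62Llo and 0.338 ± 0.424 (SD, n = 3) in KO CD62Llo (log2 change -2.34 ± 0.35 (SE) between genotypes). Siglecg fell by 1.72 and 1.22 on the log2 scale between HET and KO fractions, and it is a gene of B cells, whose markers moved in the same direction (above). In KO vs HET CD62Lhi and in the interaction, no gene of these 6 lists was called.

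The authors' deposited table of group values, whose way of combining libraries is not stated, held 46 of the 48 tested members as entries of their own. For these, 38 had the same direction as the mean of the libraries between HET fractions, 39 between KO fractions and 45 between genotypes in CD62Llo.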

How the data were processed

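Poly(A) RNA of sorted Tregs was sequenced as single ends of 50 bp in 12 libraries, 3 per group, and 11 were used. FPKM per gene were computed by the authors on the mm10 build, with TopHat, Cufflinks 2.1.1, CASAVA 1.8.2 and FastQC named per the submitters' processing notes. The TopHat version and every setting are not stated. FPKM were used as deposited, without rescaling, and no counts were used. Depths come from the deposited interval bounds, and since 12.1% to 30.8% of entries with an FPKM above 1 exceeded their own upper bound, they are uncertain.

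A limma 3.58.1 model (R 4.3.3) was fitted to log2(FPKM + 1) of all 11 libraries, with a mean for each of the 4 groups. Moderation used the intensity trend, and p-values were adjusted by Benjamini-Hochberg over 11431 genes. The members, lists and named genes were chosen with earlier results of these data known. Members named are those called in any comparison, the 10 highest and 12 with fixed roles, with values per library or group means. Context genes are named if called, up to 4 per list.

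In 3 simulations per comparison on 11431 genes, changes of 0.5, 1 and 2 were recovered at 79.7%, 100% and 100% between HET fractions, 88.4%, 100% and 100% between KO fractions and 80.3%, 100% and 100% between genotypes in CD62Lhi. Recovery was 87.9%, 99.5% and 100% between genotypes in CD62Llo and 51.5%, 98.5% and 100% for the interaction, with 7 to 12.7 false calls per simulation. The simulated noise was normal, with the same spread for all genes of a level, and few genes were changed, none of them low. Real genes differ in spread, so recovery in these data may be lower. The Gcnt1 interaction of -1.07, for example, was not called. Alternatives changed the offset, filter, scaling, block and libraries. Labels name no shared litter or day for equal replicate numbers. Deviations of same-numbered HET and KO CD62Llo libraries correlated at r of 0.165, 0.153 and 0.148, so by correlation alone the numbers pair them. Between fractions r was 0.135 and 0.0732 in HET and 0.131, 0.0684 and 0.178 in KO. KO CD62Lhi replicate 2 had a higher r with KO CD62Llo replicate 1 (0.0858) than with replicate 2, so the numbers did not pair the KO fractions throughout. The deviations of the 2 HET CD62Lhi libraries mirror each other, so the HET values are not separate.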

Additional observations from a re-analysis of the deposited data

How the results depend on the processing

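Pooled over the comparisons, most calls kept their direction and side of the threshold. Between genotypes in CD62Llo only Gcnt1, St6galnac6 and St8sia6 did so throughout. The calls of Fut7, B4galt4, Mgat4b and St3gal4 there were lost at least once. Over the 19 alternatives, 31 of 49 calls of single members named here held throughout, 18 were lost at least once and 0 turned direction, while 14 of 116 comparisons that were not called became so at least once. Between KO fractions, 10 members were called lower under quantile normalization and 9 under median centring, against 5. Between genotypes in CD62Llo, 4 were called higher under quantile normalization, against 2, and in a fit of only the 6 libraries compared 1 was higher and 2 were lower, against 2 and 5. With 1 library left out in turn, counts ran from 13 to 18 higher and 7 to 10 lower between HET fractions, and from 7 (without KO CD62Lhi replicate 3) to 11 and from 4 to 7 between KO fractions. Between genotypes in CD62Llo they ran from 1 to 3 higher and from 2 to 6 lower, with 1 higher without HET CD62Llo replicate 2 or 3 and 1 higher and 2 lower without KO CD62Llo replicate 1. Leaving out 1 HET CD62Lhi library leaves 1 in that group, which is then assumed to vary like the others. With the replicate block the counts were 18 and 10, 13 and 7, and 2 and 5 in the same order, and it changed no call of a named member between genotypes in CD62Llo. Between fractions it added calls of St3gal1 in both genotypes and of Galnt6 in KO among the named members. No alternative called a member between genotypes in CD62Lhi or for the interaction. FPKM without counts give no depth per gene, and members under 1 FPKM, such as Galnt14 in CD62Lhi or B3gnt8 in CD62Llo, rest on few reads.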
